A study of Homo sapiens with 6 samples.

Results

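The sites described here are cytosines listed as edited in long non-coding RNAs (lncRNAs) of the 22 autosomes. A site was taken where its isoform has the transcript type lncRNA in GENCODE release 44, where its strand is that of the isoform and where its position lies in an exon of it. The rule used no edit fraction. Over all 6 libraries it took 7359 of 839700 listed edits, which fall on 5742 distinct positions in 178 isoforms of 158 genes, and every one of these positions is a C in the hg38 genome. Another 380 edits of autosomal lncRNA isoforms were listed on the opposite strand and 5 lay outside the exons of their isoform, and these were left out.

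The libraries came from HEK293T cells (HEK293XT in another label field), an immortalised human embryonic kidney line, fixed on slides, with methanol in the study's main protocol. In RBFOX2-INSCRIBE (replicates 1 and 2) a rabbit antibody against endogenous RBFOX2 was bound first, and then a fusion of the cytidine deaminase APOBEC1 to a nanobody that recognises the antibody (APO1-Nb), which turns nearby cytosines into uracils. The enzyme-only control (replicates 2 and 3 by title) received APO1-Nb but no antibody, and the buffer-only control (replicates 1 and 2) received neither, so that all 3 groups share the fixation and the overnight incubation. RNA was read as full-length PacBio cDNA, and each edit was listed with its isoform and its edit fraction, from 0 to 1, given here in percent. The paper describes depletion of ribosomal RNA in its general protocol and does not say whether it applied to the long-read libraries. The replicates were separate slides of one cell line, so errors and p-values cover the spread between slides. The files hold no read numbers, the depth behind a fraction is unknown, and no expression values were at hand to check the cell line by its markers.

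lncRNAs are transcripts with no annotated protein product. Many stay in the nucleus, where NEAT1 builds the paraspeckle and MALAT1 collects in nuclear speckles. RBFOX2 is a splicing regulator that binds the sequence UGCAUG, and APOBEC1 by itself prefers a C that follows A or U.

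Sites close to UGCAUG are shown first, because the motif results turn on them. Of the 215 lncRNA sites found in both RBFOX2-INSCRIBE libraries and in no other library, 14 in 8 genes had UGCAUG within 20 nt. The edited C lay 3′ of the motif at 13 of these sites and 5′ of it at 1. The 6 with the highest mean edit fraction, 1 per motif occurrence, are printed 5′ to 3′ on the strand of the RNA, in DNA letters from hg38, with the motif and the edited C in capitals.

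LINC00938: aaagaatcTGCATGaactttCttgtcactt

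HELLPAR: ctgaagtttTGCATGtgttaCaccatatta

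ENSG00000267520: caTGCATGcaaaaagcacagacaaaaCcac

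MALAT1: tccaaagttTGCATGttaaCtttaaatgct

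OIP5-AS1: tttatttTGCATGcttattaaaCtcaaact

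ENSG00000260400: ggaatTGCATGttacttgaaagatCtaatt

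The site in LINC00938, an intergenic RNA, lies at position 45720803 (window chr12:45720794-45720823, minus strand), 7 nt 3′ of the motif, and its edit fraction was 8.70% in RBFOX2-INSCRIBE 1 and 2.78% in RBFOX2-INSCRIBE 2. In HELLPAR, a very long intergenic transcript, the site at position 102207132 (window chr12:102207112-102207141, plus strand) lies 6 nt 3′ of the motif and had fractions of 1.67% and 4.35%. In MALAT1, the site at position 65504026 (window chr11:65504007-65504036, plus strand) lies 5 nt 3′ of the motif and had fractions of 1.58% and 2.49%. These transcripts are annotated as 1 exon each.

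In OIP5-AS1, an antisense RNA also known as Cyrano, the site at position 41304277 (window chr15:41304255-41304284, plus strand) is in exon 4 of 4, 10 nt 3′ of the motif, with fractions of 2.13% and 1.45%. The sites of the unnamed genes lay farther away. In ENSG00000260400 the site at position 68700468 (window chr10:68700444-68700473, plus strand) lies 14 nt 3′ of the motif and had fractions of 1.16% and 1.23%. In ENSG00000267520 the site at position 60930650 (window chr2:60930624-60930653, plus strand) lies 19 nt 3′ of the motif and had fractions of 2.33% and 2.17%, and this exon lies wholly within an exon of the protein-coding gene REL on the same strand. All 6 fractions per library were thus a few percent, and only the LINC00938 site exceeded 5% in a library.

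lncRNA sites were most numerous with the antibody. RBFOX2-INSCRIBE 1 and 2 held 1785 and 1992 of them, enzyme-only 2 and 3 held 704 and 1505, and buffer-only 1 and 2 held 655 and 716. Both RBFOX2-INSCRIBE libraries were above all 4 control libraries, and the enzyme-only libraries differed from each other by more than the RBFOX2-INSCRIBE ones. The mean of 1888.5 ± 146 (SD, n = 2) was 1.71 times the enzyme-only mean of 1104.5 ± 566 and 2.75 times the buffer-only mean of 685.5 ± 43.1. With 2 libraries against 2, an exact two-sided permutation test cannot give a p below 0.333, which is its value in both comparisons, so that no single value per library can pass a threshold of 0.05 here. Enzyme-only over buffer-only was 1.61-fold (exact permutation p = 0.667), and the groups overlapped.

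The share of lncRNA sites among all sites did not separate the groups. It was 0.890% and 0.968% in RBFOX2-INSCRIBE, 0.819% and 0.979% in enzyme-only, and 0.901% and 1.00% in buffer-only, with overlap in each comparison. All sites together were higher by nearly the same factors, 1.70-fold over enzyme-only and 2.82-fold over buffer-only. The number of lncRNA isoforms with at least 1 site moved little, from 105 and 111 in buffer-only to 110 and 118 in enzyme-only and 114 and 116 in RBFOX2-INSCRIBE. Edits listed on the strand opposite to an autosomal lncRNA numbered 70 and 63 in RBFOX2-INSCRIBE, 53 and 73 in enzyme-only and 61 and 60 in buffer-only, and these did not follow the number of sites.

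**Figure D1:**
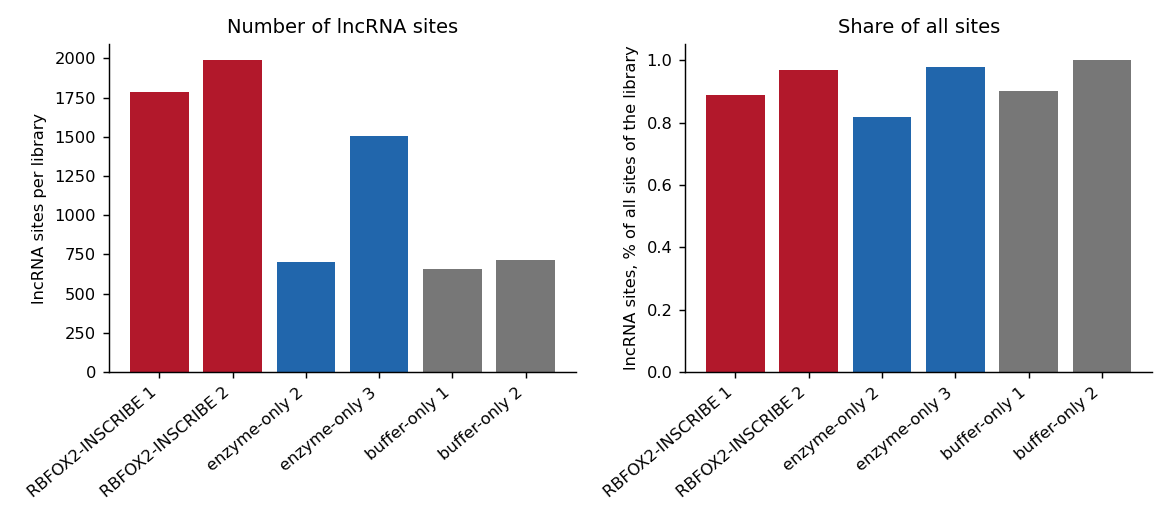
Bars give, for each of the 6 libraries, the number of lncRNA sites (left) and those sites in percent of all sites of the library (right). The RBFOX2-INSCRIBE bars on the left, 1785 and 1992, stand above the controls, whereas on the right all bars lie between 0.819% and 1.00%.

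Edit fractions at lncRNA sites were higher than at sites of protein-coding isoforms in every library. The median fraction was 1.32% and 1.23% in RBFOX2-INSCRIBE, 1.98% and 1.27% in enzyme-only and 0.893% and 1.61% in buffer-only. In protein-coding isoforms it ran from 0.515% to 0.758%. The lncRNA medians of the 3 groups overlapped, and in the controls the replicates differed from each other by more than the groups did. A fraction has a smallest possible value of 1 edited read over the reads present, so a transcript with few reads cannot show a low one, and this could not be separated from editing without read numbers.

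The isoforms themselves were of ordinary length and poor in exons. The 178 lncRNA isoforms had a median length of 3084.5 nt and 2 exons, and 79 of them (44.4%) were a single exon, against a median of 3251 nt, 9 exons and 1.62% single-exon isoforms among 8417 protein-coding ones. Cytosines made up 20.3% of their bases. By their symbols, 63 genes were unnamed, 33 antisense, 14 divergent, 11 snoRNA hosts, 7 LINC genes, 3 intronic or overlapping and 2 microRNA hosts, and 25 had other names. The 63 unnamed genes held 1681 distinct sites and the 25 others held 2223.

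Some lncRNA exons are also exons of a protein-coding gene on the same strand. This was so for 559 of the distinct sites, in 20 genes. ENSG00000259623 lies wholly within an exon of KLHL11 and held 207 of them, and ENSG00000267520 within REL held 82. The share of such sites was 12.0% and 11.2% in RBFOX2-INSCRIBE, 7.53% and 7.77% in enzyme-only, and 6.41% and 6.15% in buffer-only. For these genes the lncRNA and the coding transcript cannot be told apart from a position alone. They are kept here as the isoform assignment of the files gives them, and their values apply to the shared exon.

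A small number of genes held much of the editing. The 10 genes with most sites held 46.8% of all distinct lncRNA sites, and NEAT1 alone held 1096 of 5742. In NEAT1 the sites numbered 425 and 533 in RBFOX2-INSCRIBE, 185 and 405 in enzyme-only, and 261 and 238 in buffer-only. The antibody libraries were the highest, but enzyme-only 2 lay below both buffer-only libraries. NORAD, a cytoplasmic RNA that binds Pumilio proteins, had 117 and 116, 28 and 91, and 24 and 25 sites. Here the RBFOX2-INSCRIBE libraries were nearly equal and above all controls, and enzyme-only 3 stood well apart from enzyme-only 2.

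MALAT1 had 60 and 67 sites in RBFOX2-INSCRIBE, 30 and 42 in enzyme-only and 21 in each buffer-only library. OIP5-AS1 had 64 and 66, 29 and 30, and 13 and 18. For both genes the 3 groups did not overlap and followed the order RBFOX2-INSCRIBE, enzyme-only, buffer-only. ENSG00000259623, in the exon shared with KLHL11, showed the same order, with 106 and 108, 23 and 52, and 15 and 15 sites. HELLPAR had 60 and 64, 17 and 47, and 21 and 28 sites, so that its controls overlapped. The remaining genes of the 10 (HCG11, ENSG00000268205, NUTM2B-AS1 and SLC16A4-AS1) held between 37 and 71 sites per RBFOX2-INSCRIBE library and between 1 and 46 per control library, and in each of them both RBFOX2-INSCRIBE libraries were above all controls.

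**Figure D2:**
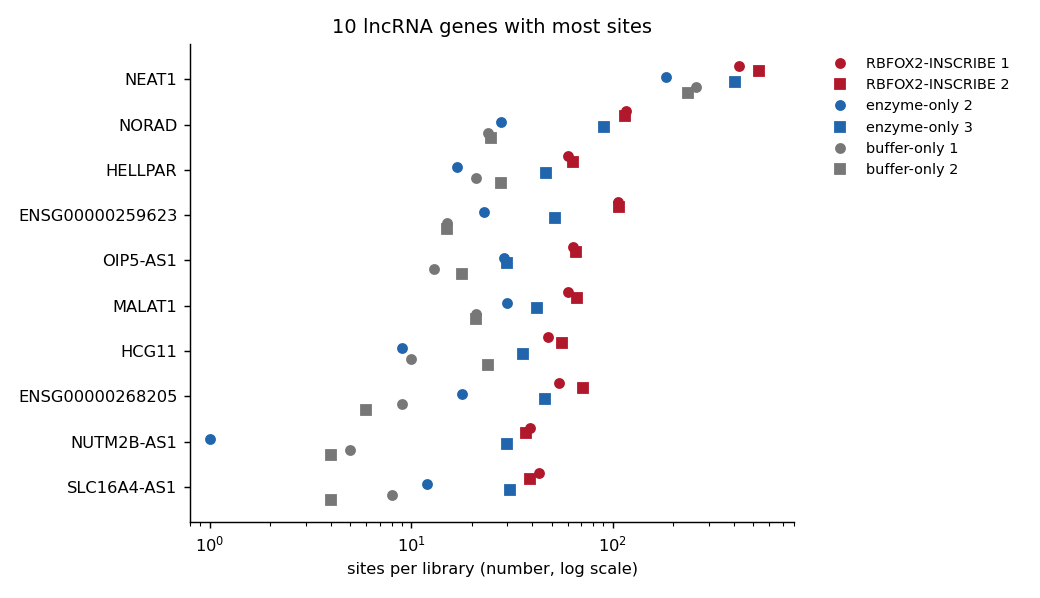
Points give the number of sites per library, on a log axis, in the 10 lncRNA genes with most distinct sites; colour marks the group and the symbol the library within it. RBFOX2-INSCRIBE points are the rightmost in every gene, and enzyme-only 3 lies closer to them than enzyme-only 2 does, with NUTM2B-AS1 the most spread (1 and 30 sites in enzyme-only).

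Per cytosine, the exon shared with KLHL11 was the most edited of the 10 genes. In ENSG00000259623 (chromosome 17, 41848518 to 41851447, minus strand, 490 Cs) the share was 21.6% and 22.0% in RBFOX2-INSCRIBE, 4.69% and 10.6% in enzyme-only, and 3.06% in each buffer-only library. In NORAD (chromosome 20, 36045618 to 36051018, minus strand, 950 Cs) it was 12.3% and 12.2%, 2.95% and 9.58%, and 2.53% and 2.63%. In NEAT1 (chromosome 11, 65422798 to 65445540, plus strand, 4646 Cs) it was 9.15% and 11.5%, 3.98% and 8.72%, and 5.62% and 5.12%. NEAT1 was thus the most edited of these in buffer-only, where no enzyme was added. HELLPAR, annotated as 1 exon of 205012 nt, had at most 0.169% of its 37783 Cs edited in any library, and its median site lay 9781 nt from its 5′ end.

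The isoforms were tested one by one with limma, on log2 of (edited Cs + 0.5) over all Cs, in a fit over every annotated isoform that averaged 5 or more edited Cs over the 4 libraries compared. Against buffer-only, 30 of 53 tested lncRNA isoforms passed an adjusted p of 0.05 and all were higher with the antibody, 56.6% beside 60.0% higher among all 5361 isoforms tested. None was lower, beside 0.0746% lower over all isoforms. The median log2 difference was 1.94 in the lncRNAs and 1.57 over all isoforms. Of the 53, 48 were positive, 90.6% beside 95.1% over all isoforms. The 53 are those of the 178 lncRNA isoforms that reached the filter, which isoforms with few edited Cs did not. In a count that uses no model, both RBFOX2-INSCRIBE libraries were above both buffer-only libraries in 43 of the 53, 81.1% beside 79.9% over all isoforms.

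The lncRNA isoforms with the largest differences that passed were mostly weakly edited ones. LINC00472, an intergenic RNA, had 14 and 22 edited Cs with the antibody and 0 and 2 in buffer-only, a log2 difference of 4.01 ± 1.05 (SE; limma adjusted p = 0.0132). The NUTM2B-AS1 isoform ENST00000619625 had 19 and 26 against 4 and 0 (3.92, limma adjusted p = 0.0157), and NUTM2B-AS1 has a near-identical copy, NUTM2A-AS1, with which reads could be exchanged. The groups did not overlap in either isoform. ENSG00000260400, which carries a printed site, had 29 and 22 against 2 and 2, a difference of 3.37 ± 0.38 (limma adjusted p = 0.000568).

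FAM88B (3.27), ENSG00000260257 (3.24), ENSG00000261098 (3.09), ENSG00000263731 (3.06) and ENSG00000268205 (2.99) complete the 8 largest log2 differences. FAM88B and ENSG00000263731 rest largely on RBFOX2-INSCRIBE 1, with 15 and 4 and with 28 and 5 edited Cs in the RBFOX2-INSCRIBE libraries, and ENSG00000261098 on RBFOX2-INSCRIBE 2, with 5 and 16. Of the 10 genes with most sites, ENSG00000259623 (2.79, limma adjusted p = 0.000442) and NORAD (2.23, limma adjusted p = 0.000491) had the smallest p. SLC16A4-AS1 (2.74), OIP5-AS1 (2.05), HCG11 (1.71), MALAT1 (1.57) and NEAT1 (0.93) also passed. HELLPAR did not, at 1.34 ± 1.37 (limma adjusted p = 0.411). NEAT1, with most sites of all, thus had the smallest difference among the 30 called.

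These calls depended on both libraries and on the total. Without RBFOX2-INSCRIBE 1 the test gave 6 calls, 12.8% beside 7.09% over all isoforms, and without RBFOX2-INSCRIBE 2 it gave 5, 11.4% beside 6.44%, all higher. With every library scaled to the same total of edited Cs, the median over all isoforms went from 1.57 to 0.14, the lncRNA median to 0.55, and 1 lncRNA isoform passed, beside 0.168% higher over all isoforms, while NEAT1 turned to -0.58 and HELLPAR to -0.16.

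Against enzyme-only, none of 63 tested lncRNA isoforms passed, beside 0.0525% higher (3 of 5715) among all isoforms. At an unadjusted p of 0.05, 12 of the 63 differed, all higher with the antibody, beside 16.2% over all isoforms. The median log2 difference was 1.12 in the lncRNAs and 0.87 over all isoforms. Of the 63, 54 were positive, 85.7% beside 85.6% over all isoforms. Both RBFOX2-INSCRIBE libraries were above both enzyme-only libraries in 28 of the 63, 44.4% beside 51.2% over all isoforms.

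The smallest p-values in this comparison belonged to isoforms that one or both enzyme-only libraries did not list. ENSG00000259994 had 14 and 6 edited Cs with the antibody and 0 in each enzyme-only library, with 0 and 3 in buffer-only (fitted log2 difference 4.28, limma adjusted p = 0.209). MIR4453HG, a microRNA host, had 11 and 22 against 0 and 5 (3.28, limma adjusted p = 0.228), and buffer-only held 4 and 7. The other microRNA host, MIR1915HG, had 3 edited Cs in enzyme-only 2 and 3 in buffer-only 2, and none elsewhere. ENSG00000260966, in an exon shared with DCUN1D5, had 24 and 14 against 0 and 6, and ENSG00000261098 had 5 and 16 against 0 and 0. ENSG00000259623 followed, at 1.61 ± 0.60 (limma adjusted p = 0.254). In the first 4 of these at least 1 control library held 0, so the size of the fitted difference depends on the added 0.5.

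The call count rested on enzyme-only 3. Without that library 19 of 61 lncRNA isoforms passed, all higher, 31.1% beside 32.0% over all isoforms. Among them were NEAT1 (1.36), NORAD (2.04) and ENSG00000259623 (2.19). The fold in lncRNA sites became 2.68. The remaining enzyme-only library is then assumed to vary like the RBFOX2-INSCRIBE libraries.

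Enzyme-only against buffer-only gave no call among 40 tested lncRNA isoforms, beside 0.812% higher (36 of 4436) among all. At an unadjusted p of 0.05, 8 of the 40 differed, beside 15.2% over all isoforms, and all were higher with the enzyme. The median log2 difference was 0.91, and 0.70 over all isoforms. NUTM2A-AS1 had the smallest p, with 8 and 13 edited Cs in enzyme-only against 0 and 1 in buffer-only. Both enzyme-only libraries were above both buffer-only libraries in 15 of the 40 (37.5%, beside 44.0% over all isoforms).

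The genes were also grouped by name, with no test between groups. Against buffer-only, each group's calls stand beside the 60.0% higher over all isoforms. The 33 antisense genes had 288 and 272 sites in RBFOX2-INSCRIBE, 107 and 245 in enzyme-only, and 86 and 89 in buffer-only, and 7 of their 10 tested isoforms passed against buffer-only. The 11 snoRNA hosts with a site, whose introns release small nucleolar RNAs, had 34 and 27, 28 and 44, and 13 and 22. Their sites were 0.847 times the enzyme-only mean and 1.74 times the buffer-only mean, and the antibody and enzyme-only groups overlapped. The other hosts with a site were DANCR, SNHG1, SNHG3, SNHG4, SNHG5, SNHG7, SNHG10, SNHG15, SNHG16 and SNHG29. SNHG29 had most distinct sites of the hosts, 35, with 8 and 0, 11 and 7, and 3 and 10 by library, and SNHG20 had 28. SNHG20 was the only snoRNA host among the isoforms tested against buffer-only, with 10 and 8 against 1 and 2 edited Cs (2.29, limma adjusted p = 0.0126). The 14 divergent genes had 81 and 71, 45 and 75, and 35 and 48 sites, and none of their 4 tested isoforms passed against buffer-only.

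Of 9 listed architectural and nuclear-retained RNAs that are autosomal lncRNAs in the annotation 3 had a site, NEAT1, MALAT1 and HOTAIR, the last a single site in enzyme-only 2, and of 5 such cytoplasmic RNAs 2 had one, NORAD and OIP5-AS1. The 2 tested isoforms of each list passed against buffer-only, where 60.0% of all isoforms did, and none passed against enzyme-only, where 0.0525% did. The nuclear list held 2.01 times the buffer-only mean in RBFOX2-INSCRIBE and the cytoplasmic list 4.54 times, and no test of that difference was made. NEAT1 held 1096 of the 1281 distinct sites of the nuclear list, so that its value is mainly that of NEAT1. MALAT1 by itself had 60 and 67 sites against 21 in each buffer-only library.

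UGCAUG lay near lncRNA sites more often with the antibody. The motif was searched wholly within 50 nt on either side of the edited C on its own strand, and the share of sites with it was set against the mean share over all Cs of the same exons. In RBFOX2-INSCRIBE 1 it was 104 of 1785 sites, 5.83% (Wilson 95% interval 4.83 to 7.01), where 2.87% would follow from the exons. In RBFOX2-INSCRIBE 2 it was 105 of 1992, 5.27% (4.37 to 6.34), against 2.92%. The ratios were thus 2.03 and 1.80.

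In the controls the share was near or below that of the exons. Enzyme-only held 11 of 704 sites (1.56%, interval 0.875 to 2.78) and 43 of 1505 (2.86%, 2.13 to 3.83), ratios of 0.548 and 1.06. Buffer-only held 14 of 655 (2.14%) and 13 of 716 (1.82%), ratios of 0.660 and 0.620. The intervals, which cover counting error only and treat neighbouring sites as independent, did not overlap between an RBFOX2-INSCRIBE and an enzyme-only library. The mean ratio was 1.92 ± 0.157 (SD, n = 2) with the antibody, 0.805 ± 0.363 with enzyme only and 0.640 ± 0.029 with buffer only, and both differences from RBFOX2-INSCRIBE had the smallest exact permutation p of 0.333.

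The ratio in lncRNAs stood beside 1.43 and 1.47 in protein-coding isoforms and 1.95 and 1.66 in retained-intron isoforms of the same RBFOX2-INSCRIBE libraries. The lncRNA values were above the coding ones in both libraries and overlapped those of retained introns, and with 2 libraries the difference was not tested. In the controls the coding and retained-intron ratios ran from 0.983 to 1.15. Without the sites in exons shared with coding genes, the lncRNA ratios in RBFOX2-INSCRIBE were 2.09 and 1.86.

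The choice of reference mattered to the size. Against only those Cs of the same exon within 500 nt of each site, an alternative chosen after seeing the data, the mean ratio was 1.59 ± 0.099 in RBFOX2-INSCRIBE, 0.873 in enzyme-only and 0.836 in buffer-only. The order of the groups was as before, with a smaller distance between them.

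**Figure D3:**
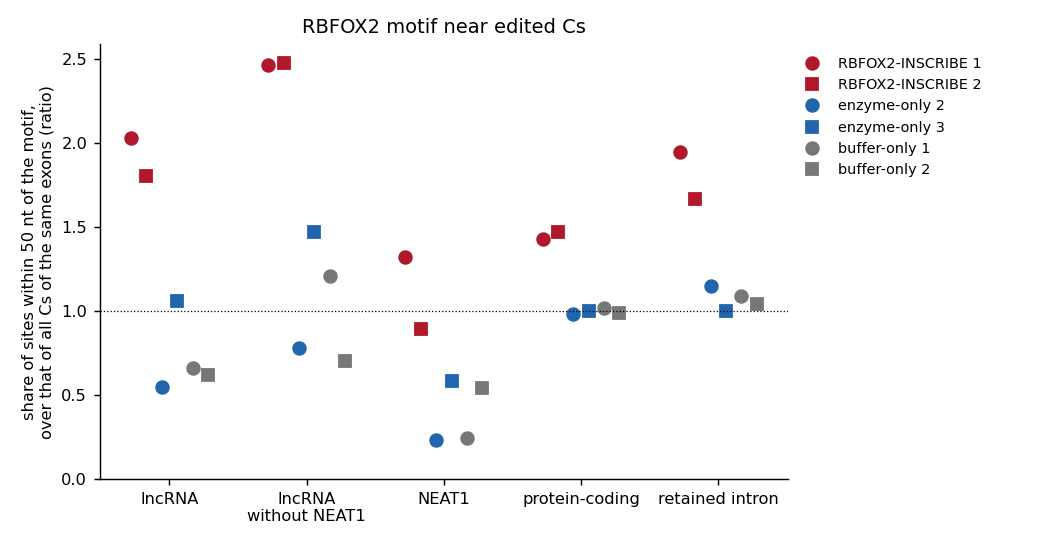
Points give, per library, the share of sites within 50 nt of the RBFOX2 motif over the share among all Cs of the same exons, for 5 sets of sites; the dotted line marks a ratio of 1. RBFOX2-INSCRIBE points lie highest in every set, at 2.47 and 2.48 in lncRNAs without NEAT1, and control points lie at or below 1.47.

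The ratio was highest close to the motif on its 3′ side. In the 25 nt 3′ of the motif centre the 2 RBFOX2-INSCRIBE libraries held 72 sites where 23.7 would follow from the exons, a ratio of 3.04 (3.24 and 2.87 by library). In the 25 nt 5′ of the centre they held 56 where 34.6 would, a ratio of 1.62 (1.91 and 1.36 by library). The C of UGCAUG itself lies just 5′ of the centre, so this 5′ window includes it and the 3′ window does not. Sites at that C were not counted separately, so the difference between the windows is partly one of what they contain. Enzyme-only had 0.480 and 1.57 in this 5′ window, so that it overlapped RBFOX2-INSCRIBE there, and buffer-only had 0.619 and 0.613. Beyond 100 nt the RBFOX2-INSCRIBE ratio was 1.25 on the 5′ side and 1.28 on the 3′ side, so that it had not fallen to 1. The same 3′ window gave 0.910 in enzyme-only and 0.642 in buffer-only. Protein-coding sites with the antibody had 1.76 in the 3′ window and 1.32 in the 5′ window, the same side being higher.

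**Figure D4:**
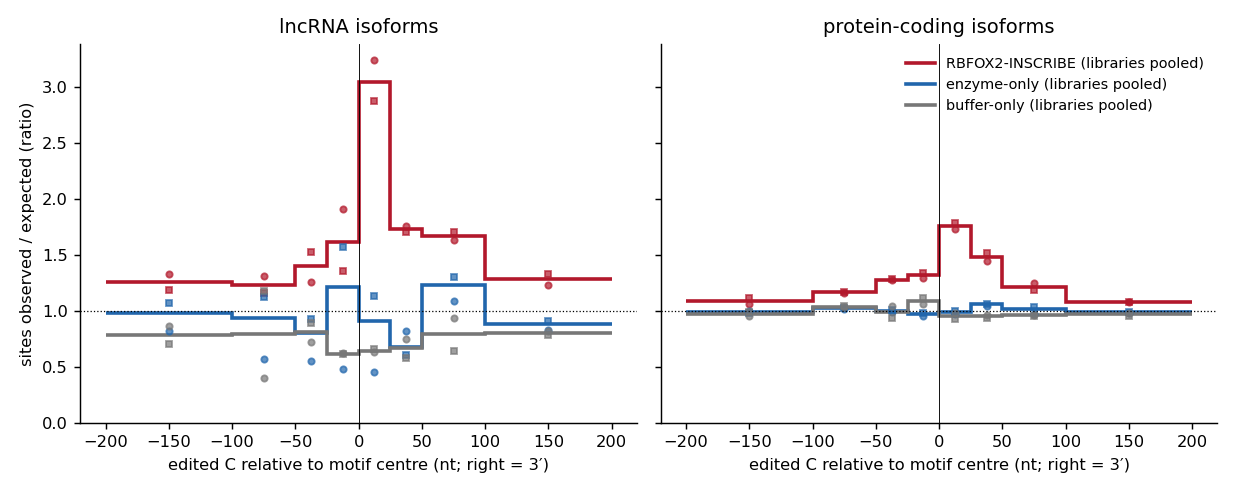
Steps give the number of sites observed over the number expected from all Cs of the same exons, by distance of the edited C from the motif centre in nt, for lncRNA (left) and protein-coding isoforms (right); small symbols are the 2 libraries of each group. The lncRNA step with the antibody peaks at 3.04 in the first 25 nt 3′ of the motif.

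The motif-near sites lay in many genes but were concentrated in a few. The 2 RBFOX2-INSCRIBE libraries held 104 and 105 of them. Over both, NEAT1 held 48, ENSG00000259623 19, HELLPAR 17, and MALAT1 and OIP5-AS1 15 each. UGCAUG occurs 257 times in the exons of 95 of the 178 isoforms. Of the 158 genes, 37 had a motif-near site in some library, 17 in both RBFOX2-INSCRIBE libraries, 7 in both enzyme-only libraries and 3 in both buffer-only libraries. The RBFOX2-INSCRIBE libraries also held more lncRNA sites in all, and these gene counts were not adjusted for that. MALAT1 had 7 and 8 motif-near sites with the antibody, where 1.32 and 1.47 would follow from its exon. In the controls it had 1, 2, 0 and 1, where 0.660, 0.924, 0.462 and 0.462 would. HELLPAR had 7 and 10 (1.5 and 1.6 expected) and 0, 4, 0 and 0 (0.425, 1.17, 0.525 and 0.700 expected). Its expectation averages over an exon of 205012 nt, whereas its median site lay 9781 nt from the 5′ end. That average need not match the stretch that was edited. OIP5-AS1, with 6 UGCAUG in its exons, had 8 and 7 (3.02 and 3.16 expected) and 2, 1, 1 and 1 (1.39, 1.39, 0.622 and 0.814 expected). In each of these genes, named after their values were seen, both RBFOX2-INSCRIBE libraries were above all controls in number of motif-near sites. They were also above all controls in the number of all sites of the gene. Some control libraries exceeded their own expectation too, such as enzyme-only 3 in HELLPAR and MALAT1. ENSG00000259623, second to NEAT1 in motif-near sites, had 10 and 9 where 7.14 and 7.27 were expected, and 1, 3, 1 and 1 in the controls.

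Among the rest, SNHG20 had 5 and 4 such sites with the antibody, 0 and 5 in enzyme-only and 0 in each buffer-only library, so that its groups overlapped. ENSG00000260400 had 5 and 4, 0 and 2, and 0 and 0. OTUD6B-AS1 had 2 and 5 with the antibody and 1 and 5 in enzyme-only, which overlapped. LINC00938 had 1 and 9, so that a single library held most of them. NORAD contains no UGCAUG in its 5401 nt, and its sites, among the densest of all lncRNAs, entered both the observed and the expected count with 0.

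NEAT1 held most motif-near sites. It had 26 and 22 motif-near sites in RBFOX2-INSCRIBE, 2 and 11 in enzyme-only and 3 and 6 in buffer-only. Its ratios were 1.32 and 0.892 with the antibody, 0.234 and 0.587, and 0.248 and 0.545, so that the RBFOX2-INSCRIBE libraries were again highest but on both sides of 1. Without NEAT1 the ratio of the other lncRNAs was 2.47 and 2.48 with the antibody, 0.782 and 1.47 in enzyme-only and 1.21 and 0.703 in buffer-only.

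NEAT1 sites were not spread evenly. In both RBFOX2-INSCRIBE libraries and enzyme-only 3 they were densest between 7001 and 9000 nt from the 5′ end, in enzyme-only 2 and buffer-only 2 between 8001 and 9000 nt, and in buffer-only 1 between 9001 and 10000 nt. The window from 7001 to 8000 had 31.4% and 41.3% of its 242 Cs edited in RBFOX2-INSCRIBE, 6.61% and 33.9% in enzyme-only and 20.7% and 16.9% in buffer-only. Between 3001 and 7000 nt the antibody libraries had 9.17% to 27.2% of Cs edited per window and the buffer-only libraries 1.38% to 5.59%. Enzyme-only 2 had 5.33% to 6.83% there and enzyme-only 3 had 7.56% to 16.8%, above every buffer-only value. In each of these windows both antibody libraries were above both enzyme-only libraries. In the next windows the groups came closer. From 9001 to 10000 nt the shares were 21.6% and 28.4% in RBFOX2-INSCRIBE and 25.3% and 21.0% in buffer-only.

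Other stretches of NEAT1 were almost empty in every library. In 7 of 23 windows at most 2% of Cs were edited in all 6 libraries, and these windows held 7 of its 11 UGCAUG. The expected share for NEAT1 counts the Cs of these windows, so it lies above what the edited stretches alone would give, and read coverage along NEAT1 was not available.

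**Figure D5:**
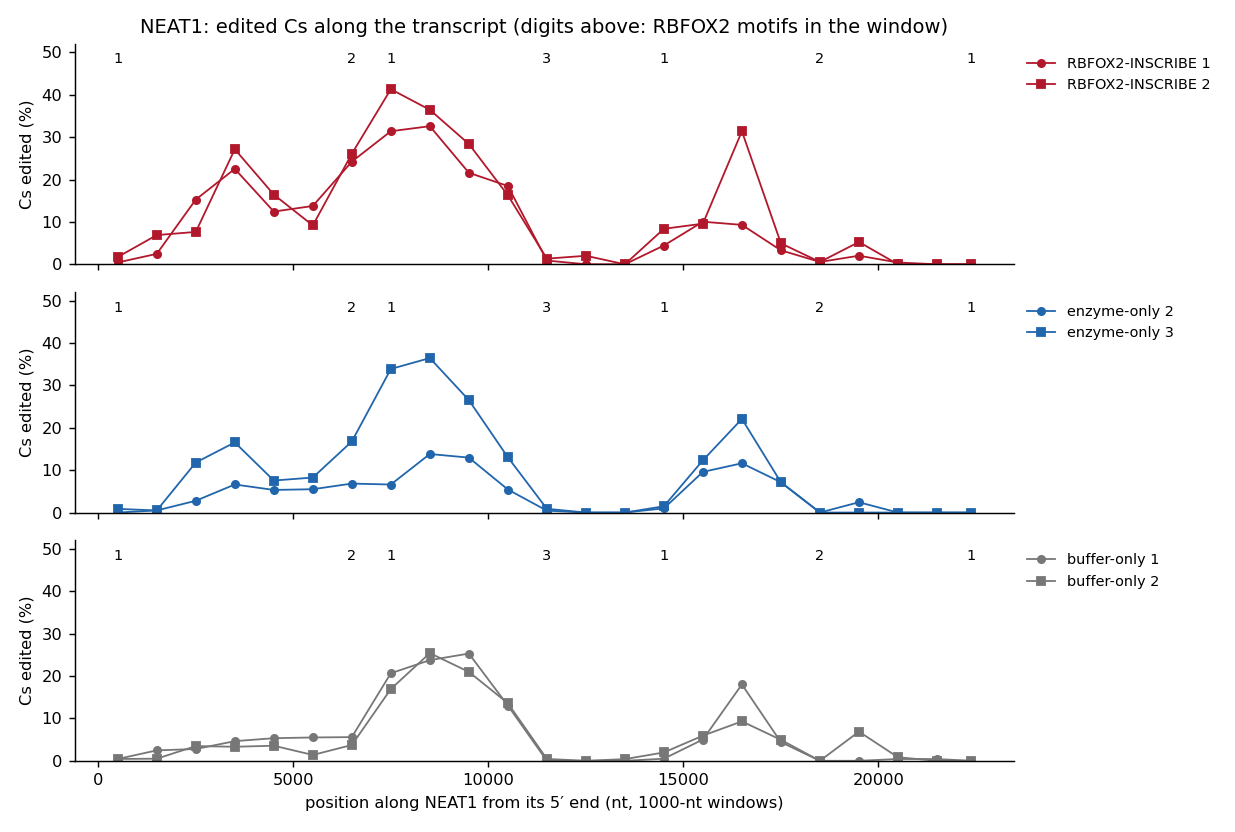
Lines give the percent of Cs with an edit in 1000-nt windows along NEAT1, from its 5′ end, in RBFOX2-INSCRIBE (top), enzyme-only (middle) and buffer-only (bottom); digits above count the RBFOX2 motifs of a window. All libraries are higher from 7001 to 11000 nt than from 11001 to 14000 nt, and between 3001 and 7000 nt both RBFOX2-INSCRIBE libraries exceed both buffer-only libraries.

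NEAT1 made up 23.8% and 26.8% of lncRNA sites in RBFOX2-INSCRIBE, 26.3% and 26.9% in enzyme-only, and 39.8% and 33.2% in buffer-only. Its share was thus higher in both libraries without the enzyme than in the 4 with it.

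The base before the edited C separated the libraries with enzyme from those without. A or U preceded 77.3% and 74.7% of lncRNA sites in RBFOX2-INSCRIBE and 68.5% and 71.2% in enzyme-only. In buffer-only it preceded 42.0% and 47.1%, below the 51.4% and 51.8% of all Cs in the same exons. The ratio to the exons was 1.41 ± 0.032 (SD, n = 2), 1.33 ± 0.022 and 0.862 ± 0.065, with no overlap between groups and an exact permutation p of 0.333 in each comparison. Sites of protein-coding isoforms had ratios of 1.37 and 1.38, 1.22 and 1.31, and 0.852 and 0.861. In NEAT1 the ratio was 1.26 and 1.24 with the antibody and 0.799 and 0.868 in buffer-only, so that its sites also differed by the enzyme.

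Few positions recurred. Of the 5742 distinct lncRNA sites, 4675 (81.4%) were listed in 1 library, 694 in 2, 236 in 3, 99 in 4, 38 in 5 and none in all 6. Among the 4 libraries treated with enzyme, too, no site was listed in every one. The study removed edits found across all samples, and its long-read methods name only RBFOX2-INSCRIBE and enzyme-only samples. Whether this filter covered the buffer-only libraries is not stated. The counts of shared sites leave out the positions it removed. The absence of sites listed in all 6 libraries, or in all 4 with enzyme, may be set by the filter. It is therefore not read as a result about recurrence. RBFOX2-INSCRIBE 1 and 2 shared 428 sites, 24.0% and 21.5% of each, close to the 24.9% and 24.3% shared in protein-coding isoforms. The enzyme-only libraries shared 96 (13.6% and 6.38%) and the buffer-only libraries 93 (14.2% and 13%). In protein-coding isoforms the enzyme-only libraries shared 13.2% and 7.39%, and the buffer-only libraries 8.67% and 8.84%.

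Sites in both RBFOX2-INSCRIBE libraries lay near the motif more often than sites in 1 of them, a difference that was not tested. Of the 215 sites in both RBFOX2-INSCRIBE libraries and no other, 23 (10.7%) had UGCAUG within 50 nt, 3.34 times the share in their exons, and they lay in 35 genes. Of the 2385 sites in only 1 RBFOX2-INSCRIBE library, 110 (4.61%) had it, 1.85 times. Of the 180 sites in both RBFOX2-INSCRIBE libraries and an enzyme-only library, which was never both of these, 15 (8.33%) had it, 2.13 times. Of the 27 sites in both enzyme-only libraries alone and the 9 in both buffer-only libraries alone, none had it, which allows a share of up to 11.1% and 33.3% (3 counts), so that a difference from 10.7% was not detectable with these numbers. The more often recurring sites were mostly in NEAT1, which held 92 of the 99 in 4 libraries and 35 of the 38 in 5, at a median highest fraction of 0.0866% and 0.0863%.

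Along the isoforms, sites were sparse near the 5′ end in every library. With each isoform cut into 5 equal stretches, the first held 0.498 to 0.636 times the sites that its Cs would give in each of the 6 libraries. The fourth stretch held 1.15 to 1.44 times that number, also in every library, and the last held 0.607 to 1.02 times. In buffer-only 1 the last stretch was the emptiest, at 0.607 against 0.636 in the first. In the first stretch both buffer-only libraries (0.636 and 0.622) were above the 4 libraries with enzyme, and in the fourth the groups overlapped. The low values of the last stretch rested on NEAT1, whose own last stretch held 0 to 0.352 times the sites that its Cs would give. Without NEAT1 the last stretch held 0.963 to 1.41 times that number. In buffer-only 1 it then held 1.07 times, against 0.696 in the first.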

How the data were processed

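Per the study's methods, full-length PacBio reads were aligned to hg38 with pbmm2, kept where primary, in the right orientation and of quality 20 or more, and assigned to isoforms with IsoQuant from uniquely assigned reads. C-to-U edits were called with custom scripts, and edits found across all samples and dbSNP variants were removed. The authors deposited 1 list per library, with position, strand, isoform and edit fraction, the deposited unit (fraction, 0 to 1). The minimum number of reads and the annotation release are not given in the sources used here. Between 99.7% and 99.8% of edits named an isoform of GENCODE release 44, which was used here.

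Removing edits found in every sample that the filter covered also removes any true edit present in all of them. Calling edits from reads makes the number of sites follow read depth, which is unknown. For each library the distinct lncRNA sites, their share of all sites, the flanking base and UGCAUG were computed with Python 3.11.15 (pandas 2.3.3, scipy 1.17.1). Expected shares are exact means over all Cs of the same exon. Groups of 2 libraries were compared with exact two-sided permutation tests over libraries. Edited Cs per isoform were tested with limma 3.58.1 in R 4.3.3 (lmFit, eBayes with trend and robust) with Benjamini-Hochberg adjustment over all isoforms tested, after a check on simulated data. Named were the 10 genes with most distinct sites, per comparison the isoforms past 0.05 (at most the 8 largest each way) or, with under 5, the 5 with the smallest p, and listed genes with a site. Other genes named for their motif-near sites were chosen after their values were seen. The sites and lists were chosen with earlier results of these data known. A planned count of sites in repeats was not run, because the genome used here does not mark repeats.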

Additional observations from a re-analysis of the deposited data

How the results depend on the processing

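Most values kept their direction and side of the threshold. The fold of lncRNA sites over enzyme-only ran from 1.25 to 2.68 when 1 library was left out, the highest without enzyme-only replicate 3. The UGCAUG ratio of 1.92 was 2.63 at edit fractions of at least 0.02, 2.32 without the 3 genes with most sites, 2.47 without NEAT1 and 1.59 against Cs within 500 nt (both chosen after seeing the data), 2.33 within 25 nt, 1.64 within 100 nt and 1.31 for GCAUG. The ratio for A or U before the C, 1.41, was 1.47, 1.45 and 1.46 for the first 3 of these settings. For UGCAUG within 25 nt the control ratios were 0.522 and 1.55 in enzyme-only and 0.693 and 0.700 in buffer-only. Without NEAT1 they were 0.720 and 2.36 in enzyme-only and 1.13 and 0.621 in buffer-only, beside 3.25 and 2.98 in RBFOX2-INSCRIBE. Enzyme-only 3 was thus above its exons at this narrower window. The 30 calls against buffer-only became 18 with a minimum of 10 edited Cs, 19 with all 3 groups in one fit, 10 at fractions of at least 0.02, 1 after scaling to the same total (10 at an unadjusted p of 0.05), and 5 to 26 with 1 library left out. The 0 calls against enzyme-only became 0 to 19 with 1 library left out, and the 0 calls of enzyme-only against buffer-only became 2 with all 3 groups in one fit. With the replicate number as a block there were 29 calls against buffer-only, 0 against enzyme-only (17 at an unadjusted p of 0.05) and 0 between the controls. Unless given above, the numbers tested and the shares over all isoforms in these settings are not set beside the counts. The counts therefore do not set lncRNAs apart from other isoforms. Same-numbered libraries shared only a number, with correlations of 0.099, 0.036 and -0.037 across isoforms, so the block has no basis in the design.

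Reversed log2 differences were, against enzyme-only, NEAT1 at -0.036 after scaling and OIP5-AS1 at -0.094 at fractions of at least 0.02. Against buffer-only they were NEAT1 at -0.58 and HELLPAR at -0.16 after scaling. For enzyme-only against buffer-only, scaling gave -0.54 for NEAT1, -0.45 for HELLPAR and -0.45 for HCG11, a fraction of at least 0.02 gave -0.55 for NEAT1, and leaving out 1 library gave -0.43 to 0.70 for NEAT1, -0.50 to 0.94 for HELLPAR, -0.76 to 1.19 for HCG11 (all lowest without enzyme-only replicate 3) and -0.42 to 3.91 for NUTM2B-AS1 (lowest without buffer-only replicate 2). HCG11 also reversed without buffer-only replicate 1, at -0.40. The cause was not tested. Depth is unknown, so a site absent from a library may have had too few reads there, and 2 libraries per group allow no exact p below 0.333.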
